A study of Arabidopsis thaliana with 6 samples.

Results

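GH3 proteins are acyl-amido synthetases that join hormones to amino acids, and the members that act on the auxin indole-3-acetic acid thereby lower the pool of free hormone. GH3 genes of that kind are classical early auxin-induced genes, as are many Aux/IAA genes, which encode repressors of auxin-dependent transcription. The genes described here are WES1 (AT4G27260, also called GH3.5, chromosome 4), GH3.1 (AT2G14960, chromosome 2) and GH3.3 (AT2G23170, chromosome 2). They were chosen by name, with the Aux/IAA gene IAA20 (AT2G46990, chromosome 2) beside them. Each had 1 probe set. They are 4 of 13286 genes that were matched to a probe set of their own, and the tests ran over 22746 probe sets, 13513 of them with a single gene name.

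Total RNA of Arabidopsis thaliana labelled as 3 weeks old was hybridised to 6 ATH1 arrays, on which several short probes per transcript are summarised to 1 value. Of the 3 groups of 2 arrays, the first was the wild type Col-0 exposed to ethylene gas at 10 ppm, for 4 h by the sample characteristics and 24 h by the array titles. The second was amiR-ETP1/2, a line in the Col-0 background with an artificial microRNA against the F-box protein genes ETP1 and ETP2, for which the labels give no gas treatment, promoter or number of independent lines. The third was Col-0 kept in hydrocarbon-free air. The study title links ETP1 and ETP2 to the breakdown of EIN2, a protein required for ethylene signalling. The design text calls the replicates biological, and nothing in the labels says whether plants were pooled or which organ was taken.

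The ethylene arrays stood apart from the rest of the series, with Pearson's r of 0.791 to 0.810 across probe sets against the other 4 arrays, beside 0.975 to 0.981 between amiR-ETP1/2 and air arrays. Of 6 listed markers of green tissue 4 were measured, and all 4 were lower with ethylene than in air (limma adjusted p under 0.05). That held for 17.1% of all probe sets. The differences of the 4 markers ran from -4.12 log2 units for RCA to -2.23 for PSAE-1. Their summed level was 11.6 log2 units in each ethylene array, 14.5 and 14.7 in the amiR-ETP1/2 arrays and 14.6 in each air array. Of 6 root markers 2 were measured, with a summed level of 5.05 to 5.43 with ethylene, 4.87 to 5.50 in amiR-ETP1/2 and 5.08 to 5.88 in air, and no flower marker was measured. The 3' end of the actin control exceeded the middle by 2.17 and 2.02 log2 units with ethylene, by 0.89 in each amiR-ETP1/2 array and by 0.32 and 0.83 in air. The 3' end exceeded the 5' end by less with ethylene, at 3.397 and 3.51 for actin, than in amiR-ETP1/2 (4.78 and 5.20) or air (4.04 and 4.68). For GAPDH the same measure overlapped between ethylene (1.02 and 1.76) and air (0.77 and 1.76) and was 0.52 and 0.66 in amiR-ETP1/2. The part of tissue state and RNA quality in the ethylene differences below was not tested, and in bulk RNA fewer cells of a type and less RNA per cell cannot be told apart. Of the targets of the artificial microRNA, ETP2 (AT3G18910) had log2 values of 4.23 and 4.47 in the amiR-ETP1/2 arrays, against 4.06 and 4.14 in the air arrays (difference 0.25, SE 0.14, limma adjusted p = 0.448). Its array value was thus not lower in the line. These values are low and a signal over background was not measured, so a fall of the transcript could be missed here. ETP1 had no single-gene probe set in the annotation used here.

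With ethylene, WES1 rose 24.1-fold, and the other 3 genes were not called. WES1 conjugates amino acids to indole-3-acetic acid and has also been shown to act on salicylic acid. Its log2 values were 9.42 and 9.50 in the ethylene arrays, 6.47 and 5.79 in the amiR-ETP1/2 arrays and 5.003 and 4.73 in the air arrays. Each ethylene array was above each amiR-ETP1/2 array, and each amiR-ETP1/2 array was above each air array. All arrays stood in that order at 4.55% of all probe sets, and at 20.7% of the probe sets called higher with ethylene.

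**Figure D1:**
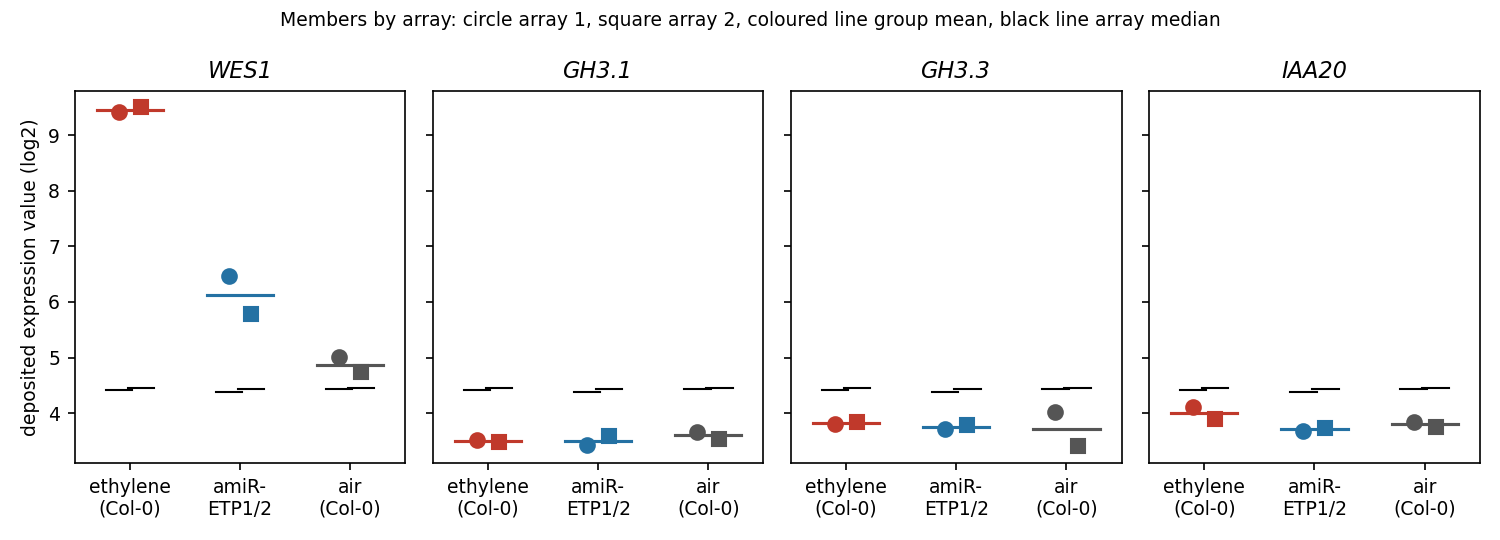
Deposited log2 value of WES1, GH3.1, GH3.3 and IAA20 on each array, with circles for array 1, squares for array 2, coloured lines for group means and short black lines for the median of each array. WES1 was at 9.42 and 9.50 with ethylene, and every value of the other members was below the array median.

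The group means of WES1 were 9.46 ± 0.055 with ethylene, 6.13 ± 0.48 in amiR-ETP1/2 and 4.87 ± 0.19 in air (SD, n = 2 each). The difference of ethylene from air was 4.59 log2 units (SE 0.23, 95% interval 4.06 to 5.12), or 16.6-fold to 34.9-fold at the ends of the interval, with a limma adjusted p of 6.28e-06. An adjusted p under 0.05 was reached by 36% of all probe sets in this comparison, 18.9% higher and 17.1% lower, so a call alone does not set a gene apart here. The size of the WES1 rise was less common. It was number 95 from the top of 22746 probe sets and number 32 of the 13513 with a single gene, and 0.725% of probe sets had a difference at least as large in either direction.

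In amiR-ETP1/2 the WES1 difference from air was 1.26 log2 units, or 2.40-fold (SE 0.23, 95% interval 0.73 to 1.80, not adjusted for the number of probe sets). By limma this was no call (adjusted p = 0.0678), in a comparison with calls at 0.62% of probe sets, 0.347% higher and 0.273% lower. The 2 amiR-ETP1/2 arrays differed by 0.68, a gap reached by 4.27% of probe sets between these arrays, where the median gap was 0.16. Without amiR-ETP1/2 array 2 the difference was 1.60 and was called (adjusted p = 0.0135), and without array 1 it was 0.92 and was not (adjusted p = 0.0791). It was also called when the lowest-valued 40% of probe sets were dropped (adjusted p = 0.0314) and with the trend and robust options of limma (adjusted p = 0.027). Over all alternatives, the adjusted p ran from 0.0135 to 0.225, and the difference was positive in each.

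Set against ethylene, WES1 was lower in amiR-ETP1/2 by 3.33 log2 units (a difference of -3.33, SE 0.23, limma adjusted p = 2.5e-05), or 10.0-fold. Over all probe sets 38.4% were called here, 18.2% higher and 20.2% lower. The mean of amiR-ETP1/2 lay 27.5% of the log2 distance up from air towards ethylene. This place rests on a difference from air that was not called, and on 2 amiR-ETP1/2 arrays that differed by 0.68. The differences of ethylene and of amiR-ETP1/2 from air share their air arrays, so they are not independent of each other.

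GH3.1 and GH3.3, which like WES1 conjugate amino acids to auxin, had low values on every array and no called difference. The GH3.1 values were 3.51 and 3.47 with ethylene, 3.42 and 3.59 in amiR-ETP1/2 and 3.66 and 3.54 in air. Both ethylene values were below both air values, as at 32.9% of probe sets, and the amiR-ETP1/2 values overlapped those of both other groups. The position of GH3.1 within an array ran from percentile 4.95 to 17.9. Percentiles place a probe set within the values of an array and do not rank transcript amounts, since probe sets bind with unequal strength.

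The difference of GH3.1 with ethylene was -0.11 (SE 0.13, limma adjusted p = 0.585), and its 95% interval of -0.41 to 0.19 did not reach a change by a factor of 1.5 in either direction on the scale of the deposited values. In amiR-ETP1/2 the difference from air was -0.09 (95% interval -0.39 to 0.20, limma adjusted p = 0.789). A signal over background was not measured, so a transcript below the detection limit of the array and an unchanged transcript would look alike here.

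GH3.3 varied most between the air arrays. Its values were 3.81 and 3.83 with ethylene, 3.71 and 3.78 in amiR-ETP1/2 and 4.02 and 3.404 in air. The air values lay on both sides of all other values, and their gap of 0.62 was reached by 4.92% of probe sets between these arrays. The difference with ethylene was 0.11 (SE 0.20, 95% interval -0.36 to 0.58, limma adjusted p = 0.748), and that of amiR-ETP1/2 from air was 0.03 (95% interval -0.44 to 0.50, limma adjusted p = 0.959). The sign of both rested on air array 2, since without it they were -0.20 and -0.27, again not called.

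IAA20 belongs to the Aux/IAA proteins that lack the degron through which auxin triggers the breakdown of the family, so its protein is known to be long-lived. Its values were 4.11 and 3.89 with ethylene, 3.69 and 3.74 in amiR-ETP1/2 and 3.84 and 3.75 in air. The ethylene arrays were the highest and the amiR-ETP1/2 arrays the lowest, with no overlap between any groups. Such a separation without regard to size was found at 66.4% of probe sets between ethylene and air, at 44.5% between amiR-ETP1/2 and air (amiR-ETP1/2 the lower at 25.6%), and at 71% between amiR-ETP1/2 and ethylene. The difference with ethylene was 0.20 (SE 0.13, 95% interval -0.11 to 0.51, limma adjusted p = 0.308). The differences of amiR-ETP1/2 were -0.09 from air (adjusted p = 0.818) and -0.29 from ethylene (95% interval -0.60 to 0.02, adjusted p = 0.133), and none was called.

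**Figure D2:**
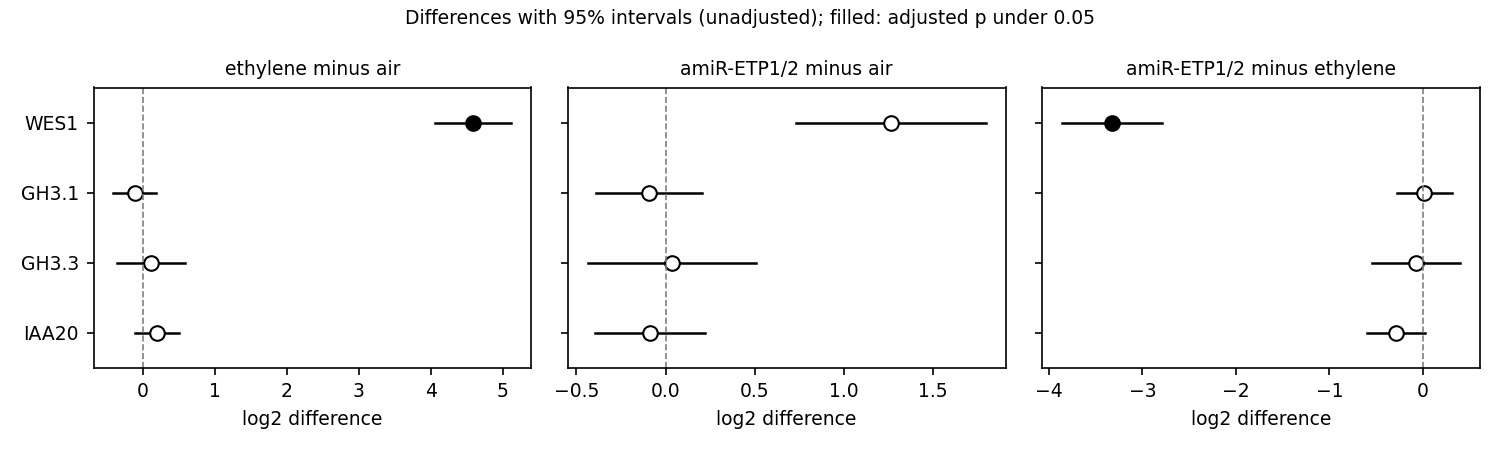
Log2 difference of each member in each comparison (points) with its unadjusted 95% interval (lines), filled where the limma adjusted p was under 0.05; the horizontal scale differs between the panels. WES1 is the 1 member with filled points, at 4.59 for ethylene minus air and -3.33 for amiR-ETP1/2 minus ethylene.

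**Figure D3:**
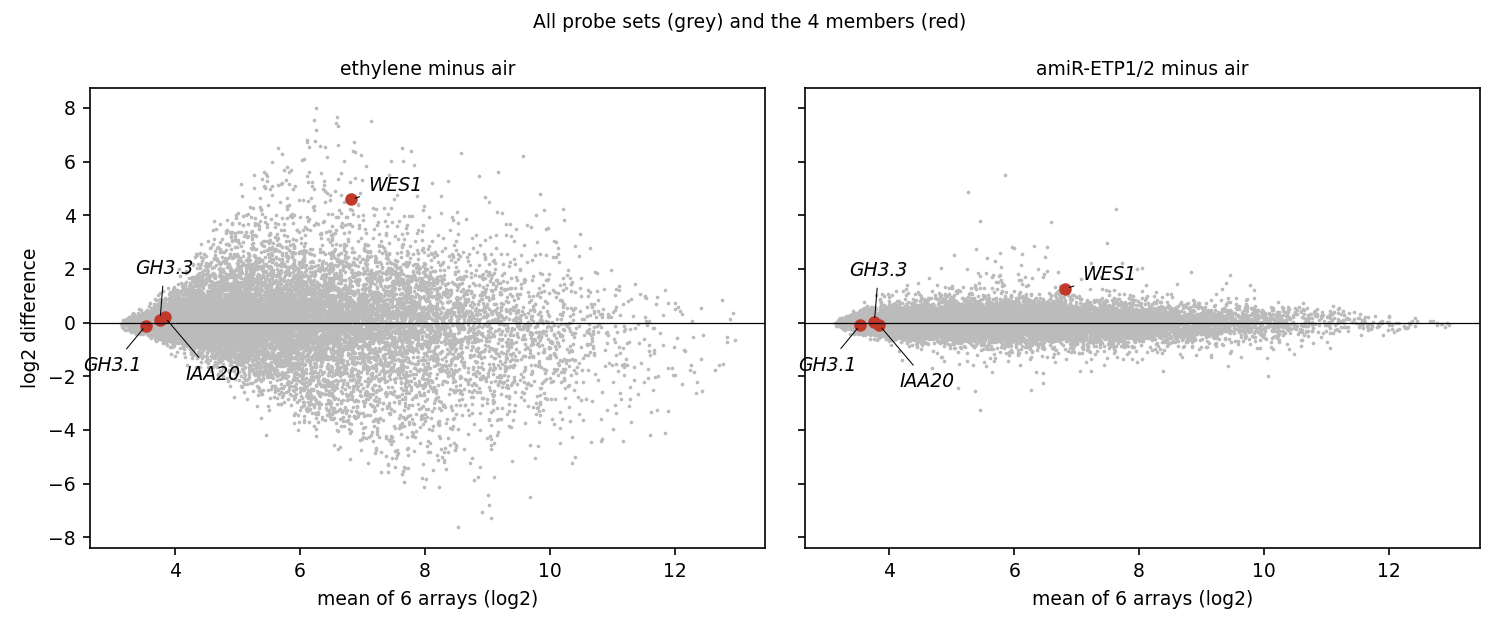
Log2 difference from air (vertical) against the mean of the 6 arrays (horizontal, log2) for all 22746 probe sets in grey and the 4 members in red, with ethylene on the left and amiR-ETP1/2 on the right. WES1 lies high in both panels, while GH3.1, GH3.3 and IAA20 lie near 0 at the low end of the scale, where differences of all probe sets were small.

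The rest of the GH3 family was taken from a list of 19 genes, of which 11, WES1, GH3.1 and GH3.3 included, had a probe set of their own. With ethylene 2 of the 11 rose, 0 fell and 9 were not called, beside calls at 18.9% (higher) and 17.1% (lower) over all probe sets. The median difference of the 11 was 0.10, and that of all probe sets was 0.00 to 2 decimals (-0.0028). Besides WES1, the gene called was AT5G13380, with 3.87 and 3.85 with ethylene and 3.51 and 3.27 in air (difference 0.47, SE 0.14, limma adjusted p = 0.0365). Its call was lost without air array 2 or without either ethylene array.

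GH3.17, which prefers glutamate as the amino acid joined to auxin, had 4.00 and 4.36 with ethylene, 4.45 and 4.33 in amiR-ETP1/2 and 3.97 and 4.03 in air. Its amiR-ETP1/2 arrays were both above both air arrays, as at 18.9% of probe sets, and the difference of 0.39 was not called (limma adjusted p = 0.293). GH3.9 stayed between 3.48 and 3.69 on all arrays. The other 5 genes, AT1G23160, AT5G51470, AT5G13350, AT1G48670 and AT1G48660, are placed in the family by the list alone, and the annotation used here gives them no family name. Their ethylene differences ran from -0.36 for AT1G48660 (adjusted p = 0.0708) to 0.14 for AT1G48670. None of the 11 was called in amiR-ETP1/2 against air, where 0.62% of all probe sets were called. Their median difference was 0.03, beside -0.03 over all probe sets. JAR1 and PBS3, the family members that act on jasmonate and in salicylate metabolism, had no such probe set here. Whether probes of one GH3 gene also bind transcripts of its close relatives was not tested.

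Of 29 listed Aux/IAA genes 7 were measured, and with ethylene 2 rose, 1 fell and 4, IAA20 included, were not called. Over all probe sets 18.9% were called higher and 17.1% lower in this comparison. IAA18 rose 3.58-fold, the next largest called difference after WES1 among the listed auxin genes measured. Its values were 8.59 and 8.33 with ethylene, 7.08 and 7.17 in amiR-ETP1/2 and 6.53 and 6.71 in air. The groups stood in the same order as for WES1 and without overlap, as at 20.7% of the probe sets called higher with ethylene and 4.55% of all. The difference of IAA18 with ethylene was 1.84 (SE 0.14, limma adjusted p = 5.1e-05), and in amiR-ETP1/2 it was 0.51 from air (adjusted p = 0.173) and -1.33 from ethylene (adjusted p = 0.00025).

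IAA34 had 4.39 and 3.92 with ethylene and 3.50 and 3.44 in air, a rise of 0.69 (limma adjusted p = 0.016). IAA33 had 3.85 and 3.67 with ethylene and 4.35 and 4.23 in air, a difference of -0.53 (adjusted p = 0.0144). For ethylene against air, the IAA34 call was lost without either air array and without ethylene array 1. The IAA33 call of that comparison was lost without air array 1 and without ethylene array 2. IAA29 had its lowest values in amiR-ETP1/2, with 4.68 and 4.92 with ethylene, 3.98 and 4.27 in amiR-ETP1/2 and 4.88 and 4.99 in air. Its amiR-ETP1/2 difference was -0.81 from air, which did not pass the test (adjusted p = 0.079), and -0.67 from ethylene, which did (adjusted p = 0.0109). That call was lost without amiR-ETP1/2 array 1 (adjusted p = 0.0567) and without ethylene array 2 (adjusted p = 0.0891). IAA30, which like IAA20 lacks the degron, and IAA31 stayed between 3.49 and 3.84 on all arrays.

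Few genes of auxin synthesis and of its inactivation and release from conjugates were measured. Of 23 synthesis genes 4 were measured, the flavin monooxygenase genes YUC2, YUC4, YUC6 and YUC11, and none was called in any comparison. Over all probe sets 36% were called for ethylene against air, 0.62% for amiR-ETP1/2 against air and 38.4% for amiR-ETP1/2 against ethylene. The values of these 4 genes were low, from 3.39 to 4.68, and a signal over background was not measured. Their ethylene differences ran from -0.35 for YUC6 to 0.15 for YUC11. Of 13 genes of inactivation and release 4 were measured, and AT1G14130 was called higher with ethylene, at 4.89 and 4.67 against 4.44 and 4.19 in air (difference 0.47, limma adjusted p = 0.0469). This call was lost under quantile normalization and median centring, among other alternatives. AT1G14120 had a difference of -0.44 (adjusted p = 0.1003). The auxin glucosyltransferase genes UGT84B1 and UGT74D1 had differences of -0.12 and 0.28 and were not called. IAGLU (AT4G15550), annotated as an indole-3-acetate glucosyltransferase, is in none of the lists and was chosen after its values were seen. Its values were 8.52 and 8.70 with ethylene, 5.18 and 6.13 in amiR-ETP1/2 and 4.84 and 4.86 in air. It rose 13.5-fold with ethylene (difference 3.76, SE 0.28, limma adjusted p = 4.03e-05), and its amiR-ETP1/2 difference from air was 0.80 (adjusted p = 0.241).

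In all, 26 of 201 listed auxin genes were measured, of which 5 were called higher and 1 lower with ethylene, beside 18.9% and 17.1% of all probe sets. In amiR-ETP1/2 0 were called against air, beside 0.62%, and 1 higher and 5 lower against ethylene, beside 18.2% and 20.2%. At an unadjusted p under 0.05 the amiR-ETP1/2 comparison with air held 15.1% of all probe sets. WES1 and IAA18 were called higher with ethylene under every alternative run. They are the 2 of the 26 genes for which that was so. When the lowest-valued 40% of probe sets were dropped, 8 of the 26 remained. AT5G13380, IAA33 and IAA34 were among the low-valued genes dropped and could not be called there. The listed auxin receptors, auxin response factors, transport genes and SAUR genes had no single-gene probe set in the annotation and were not analysed here. Genes were counted as measured by that annotation, in which 8730 of the 22746 probe sets had no gene name and 503 had several. A listed gene not counted as measured may therefore still have a probe set on the array.

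**Figure D4:**
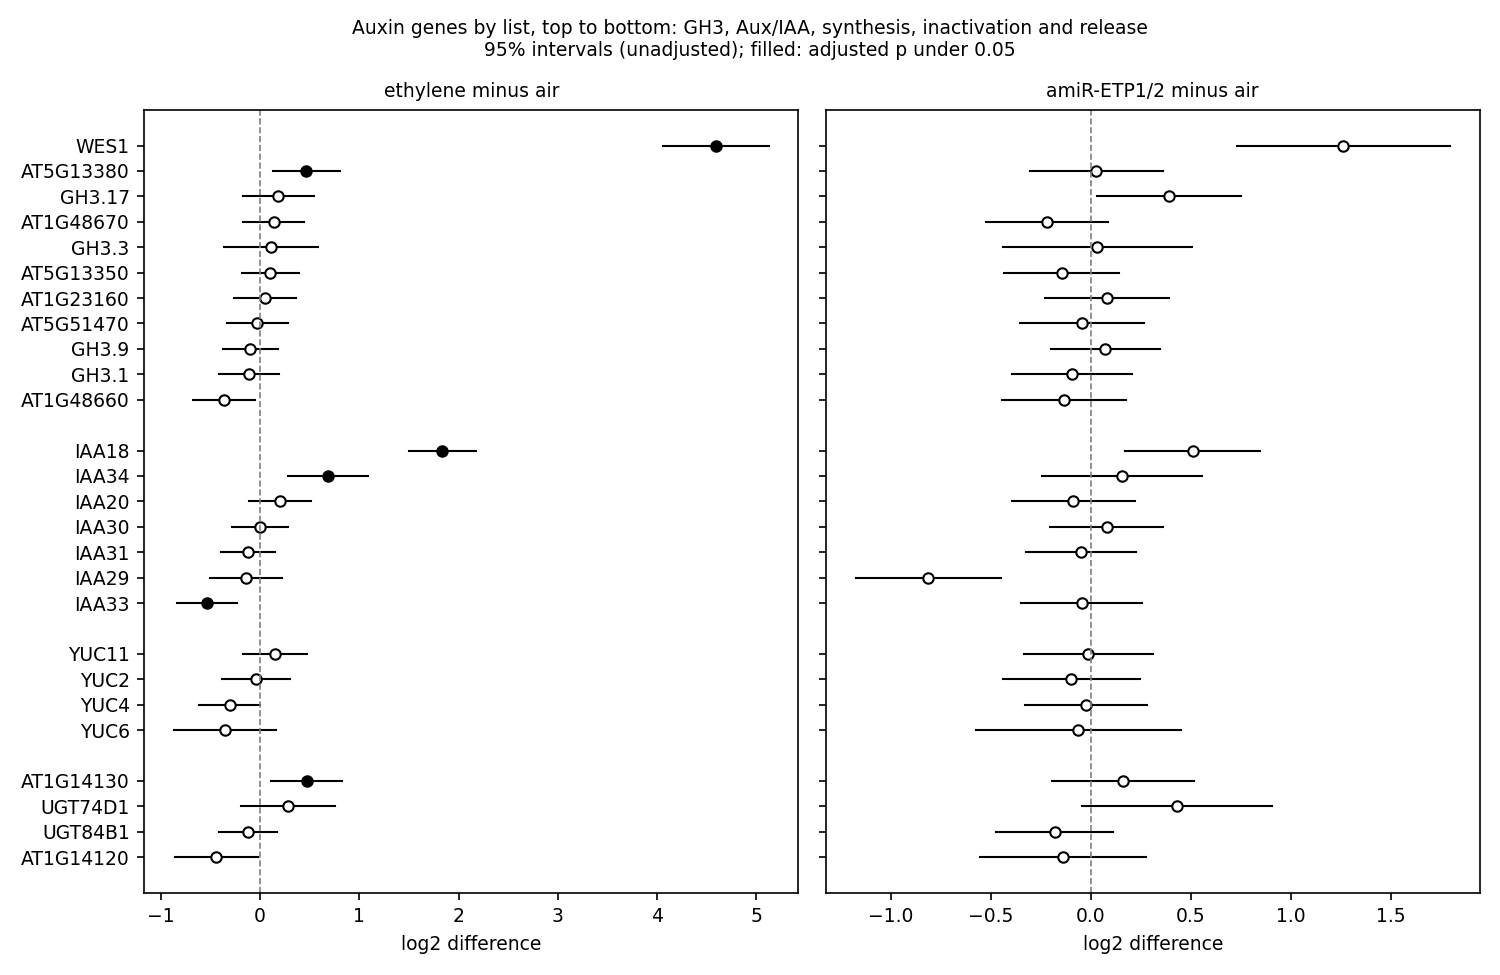
Log2 difference (points) and unadjusted 95% interval (lines) of the 26 measured auxin genes, grouped from top to bottom as GH3, Aux/IAA, synthesis, and inactivation and release, for ethylene minus air on the left and amiR-ETP1/2 minus air on the right, with points filled where the limma adjusted p was under 0.05. WES1 at 4.59 and IAA18 at 1.84 are the points farthest to the right on the left, and no point is filled on the right.

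The array profiles most like that of WES1 were sought among all single-gene probe sets by the root mean square distance over the 6 arrays, each profile centred on its own mean. What these profiles share with WES1 follows from that choice and is no separate result. The median distance to WES1 was 1.95 log2 units. The nearest were AT3G60420 at 0.30, the aldehyde dehydrogenase gene ALDH7B4 (AT1G54100) at 0.35, AT4G20860 and AT1G15010 at 0.39 each, and OSM34 (AT4G11650), of the osmotin type, at 0.40. Their ethylene differences were between 3.76 for AT4G20860 and 4.50 for OSM34. Their amiR-ETP1/2 differences from air were between 0.44 for AT1G15010 and 1.87 for OSM34, and none was called (limma adjusted p from 0.0853 to 0.289). OSM34 had values of 7.16 and 5.75 in the amiR-ETP1/2 arrays, so that array 1 was the higher, as for WES1, and by a gap of 1.40.

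**Figure D5:**
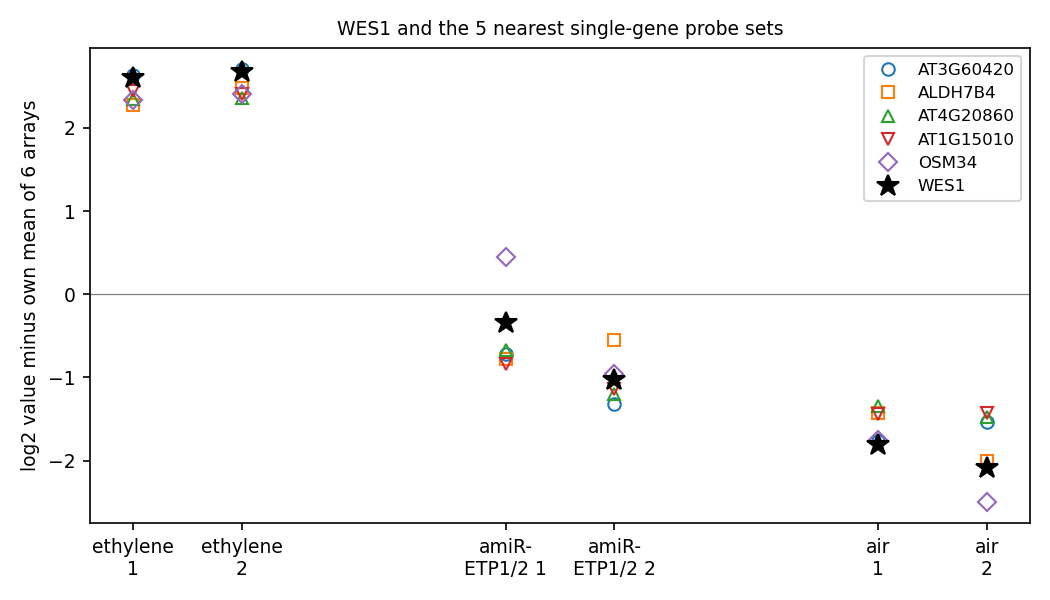
Log2 value minus the gene's own mean over the 6 arrays for WES1 (stars) and the 5 single-gene probe sets nearest to it (open symbols), by array. All 6 are high in both ethylene arrays, and OSM34 spreads widest between the 2 amiR-ETP1/2 arrays and between the 2 air arrays.

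The 5 profiles nearest to each of the other members were found in the same way, so what they share with that member also follows from the choice. For GH3.1 they were AT2G03280, AT3G21380, AT4G24170, AT3G49510 and AT2G01210, at distances of 0.020 to 0.028. For GH3.3 they were AT3G15120, AT1G77800, AT3G15010, AT1G31850 and AT5G12440, at 0.052 to 0.072. Each of them had a higher value in air array 1 than in air array 2, by 0.50 to 0.65, as the choice by likeness to GH3.3 favours. For IAA20 they were ATGSTF13, AT1G49220, AT1G12290, AT5G05350 and AT3G04500, at 0.023 to 0.038. None of these 15 was called in any comparison.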

How the data were processed

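The deposited values, 1 per probe set and array, lie between about 3 and 14 and were read as log2 expression. No source used here states the scale, so each fold depends on that reading. Per the submitters' processing notes limma was used by the authors, with no version given. How background, probe summary and normalization were handled, and the genome build, is not given in those sources; any compression of low signals carries over into the differences. The 7 control probe sets were left out. limma 3.58.1 (R 4.3.3) fitted the 6 arrays together with a mean for each group, with 3 residual and 4.15 prior degrees of freedom, two-sided tests and Benjamini-Hochberg adjustment over 22746 probe sets. A gene was called at an adjusted p under 0.05. SE and 95% intervals are those of this model (n = 2 arrays per group), and the number of arrays limits the precision. Permuting 2 against 2 arrays cannot pass the threshold and was not done. The script was tested on simulated data.

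Names came from the platform annotation, matched to TAIR10.1 loci, with 13436 of 13513 single-gene probe sets matched. A gene was represented by its probe set with the highest mean. The genes named are the members, all measured genes of lists with at most 8 others, and the 5 nearest profiles per member. Members and lists were chosen with earlier results of these data known. Replicate numbers link no arrays by the labels, so no pairing was used.

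The alternatives were quantile normalization, median centring, a filter, a replicate block, fits of 4 arrays, the trend and robust options, and each array left out. Where that left a group with 1 array, it was assumed to vary like the others.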

Additional observations from a re-analysis of the deposited data

How the results depend on the processing

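The WES1 differences of ethylene from air and of amiR-ETP1/2 from ethylene were called, with the same sign, under every alternative. For WES1 in amiR-ETP1/2 against air, 1.26 log2 units became a call when the lowest-valued 40% of probe sets were dropped (1.26) or trend and robust options were set (1.26), and single arrays left out gave 0.92 to 1.60. No member but WES1 was called under any alternative. Leaving out single arrays gave 0.098 to -0.065 for GH3.1 in amiR-ETP1/2 against ethylene (-0.0022 without ethylene array 2), 0.42 to -0.20 for GH3.3 with ethylene against air and 0.34 to -0.27 for GH3.3 in amiR-ETP1/2 against air. GH3.1, GH3.3 and IAA20 fell under the filter and have no value there.

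The count of probe sets called in amiR-ETP1/2 against air was 141, and 259 with quantile-normalized values, 213 with centred medians, 232 with the filter, 42 with the replicate block, 9 from the 4 arrays compared, 233 with the trend and robust options, and 9 to 252 with single arrays left out. The counts of the other comparisons moved by less than 1.5 times. Added after the data were seen, the alternatives for the list genes turned the sign for IAA33 (-0.11 to 0.017 with single arrays left out) and AT5G13380 (-0.093 to 0.15) in amiR-ETP1/2 against air, where neither was called. With the replicate block WES1 in amiR-ETP1/2 had an adjusted p of 0.11 (limma), and no call of a member changed. Deviations of arrays with the same number correlated across probe sets at 0.069 between amiR-ETP1/2 and ethylene, -0.14 between ethylene and air and -0.17 between amiR-ETP1/2 and air. With 2 arrays per group, the smallest called difference of any probe set was 0.36 log2 units for ethylene and 0.79 for amiR-ETP1/2, each against air.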

Other observations

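The genes beside WES1 on chromosome 4 were looked up in the gene order of the TAIR10.1 annotation, after the values of one of them had been seen. AT4G27280, which encodes a calcium-binding protein with EF hands and lies 2 genes from WES1, had log2 values of 8.52 and 8.33 with ethylene, 9.48 and 9.21 in amiR-ETP1/2 and 5.04 and 5.21 in air. It was called higher in both comparisons with air, by 3.301 with ethylene (limma adjusted p = 4.8e-06) and by 4.23 in amiR-ETP1/2 (adjusted p = 0.00014). Its amiR-ETP1/2 arrays were above its ethylene arrays (difference 0.92, limma adjusted p = 0.0021), while those of WES1 were below. For both genes the air arrays were the lowest. AT4G27270, between WES1 and AT4G27280, had 4.54 and 4.50 with ethylene, 4.85 and 5.11 in amiR-ETP1/2 and 5.79 and 5.58 in air, a difference of -1.16 with ethylene (adjusted p = 0.00056) and of -0.71 in amiR-ETP1/2 (adjusted p = 0.0942). AT4G27240, AT4G27250 and AT4G27290, the other measured genes within 3 genes of WES1, were not called in any comparison. Over all probe sets, 36% were called with ethylene and 0.62% in amiR-ETP1/2, each against air, and 38.4% in amiR-ETP1/2 against ethylene.

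Near GH3.1 on chromosome 2, AT2G15020 had 4.44 and 4.12 with ethylene, 5.49 and 6.91 in amiR-ETP1/2 and 7.19 and 6.21 in air, a difference of -2.42 with ethylene (limma adjusted p = 0.0058). AT2G15000, the next gene to GH3.1, was lower with ethylene by 0.97 log2 units (a difference of -0.97, adjusted p = 0.0017). AT2G15010, which lies between AT2G15000 and AT2G15020, had a difference of -0.013 with ethylene and was not called (adjusted p = 0.952). GH3.1 itself had a difference of -0.11. The measured genes within 3 genes of GH3.3 (AT2G23160 and AT2G23200) and of IAA20 (AT2G47010) were not called with ethylene against air. Of these, AT2G23200 was called in amiR-ETP1/2 against ethylene (difference -0.69, limma adjusted p = 0.006).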
